A study of Mus musculus with 6 samples.

Results

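The genes described here are 6 matrix metalloproteinases (MMPs), Mmp2, Mmp3, Mmp9, Mmp12, Mmp14 and Mmp19, and the 4 tissue inhibitors of metalloproteinases, Timp1 to Timp4. They were chosen by symbol from a table of 55335 genes, and each of the 10 symbols matched 1 row. Aorta was taken from wild-type C57BL/6 mice (c57b6l in the labels) aged 6 weeks (young, 3 mice) or 6 months (aged, 3 mice), with no treatment in either group, and mRNA was sequenced with 1 library per mouse. The comparison asks which genes differ in the vessel wall between these ages. The fat around the vessel had been dissected away before freezing, all mice are described as male, and an age of 6 months is the only aged time point.

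MMPs are zinc-dependent proteases that cut collagens, elastin, proteoglycans and other proteins of the extracellular matrix. They are made as inactive precursors, and removal of a propeptide, often by another protease, frees the active site. TIMPs bind that site and block it, so the balance between the 2 families bears on how much matrix is lost. In the aorta, MMPs are best known for the breakdown of elastic fibres in aneurysm and for remodelling of the wall.

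The 6 MMPs share the stretch that binds the catalytic zinc, which is shown here because each of the 6 holds it. In the longest protein-coding transcript of each gene in GENCODE M21, a single in-frame run of 33 bases held the codons of the 3 zinc-binding histidines and of the catalytic glutamate, printed in capitals, 5′ to 3′ on the plus strand of GRCm38. It lay in exon 8 of 13 in the gelatinases Mmp2 (chromosome 8, 92839279 to 92839311) and Mmp9 (chromosome 2, 164951133 to 164951165). It lay in exon 5 of 10 in Mmp3 (chromosome 9, 7449775 to 7449807), Mmp12 (chromosome 9, 7352914 to 7352946) and Mmp14 (chromosome 14, 54437627 to 54437659), and in exon 5 of 9 in Mmp19 (chromosome 10, 128795673 to 128795705).
Mmp2: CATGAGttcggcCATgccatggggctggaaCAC
Mmp9: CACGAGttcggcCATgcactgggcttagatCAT
Mmp3: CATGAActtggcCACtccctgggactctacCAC
Mmp12: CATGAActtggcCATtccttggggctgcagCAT
Mmp14: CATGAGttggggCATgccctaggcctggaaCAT
Mmp19: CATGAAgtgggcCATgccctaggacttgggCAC
Between pairs of genes, 20 (Mmp9 and Mmp3) to 27 (Mmp2 and Mmp14) of the 33 bases were the same, and Mmp3 and Mmp12, which lie close together on chromosome 9, shared 26.

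Counts summed to between 31049632 and 45832185 per library. Values are given as CPM, the count per 1000000 reads after TMM scaling between libraries, and, where different genes are set side by side, as FPKM, which also divides by gene length. Young replicate 1 went against its male label, with 14806 counts of Xist (7 to 24 in the other libraries) and 53 of the Y-linked Ddx3y (1488 to 2117 elsewhere). Smooth muscle markers (7 genes, such as Myh11 and Acta2) had sums from 32330 to 40220 CPM in young libraries. Their sums ran from 28060 to 33390 CPM in aged libraries, so the ranges overlapped. Fibroblast markers (7 genes, such as Pdgfra, Dcn and Pi16) summed to 1092, 1205 and 1541 CPM in young replicates 1, 2 and 3 and to 5460, 1109 and 4171 in aged replicates 1, 2 and 3, so aged replicate 2 lay with the young libraries. Aged replicate 2 also had the highest sum of adipocyte markers (10 genes), at 4181 CPM against 561 to 1974 elsewhere. Aged replicate 3 stood apart in the sum of its endothelial markers (6 genes), at 1618 CPM against 366 to 509 elsewhere. Pecam1 was at 870 CPM there and Vwf at 404. Erg (54.8) and Kdr (33.4) were little above their next highest values, 52.8 and 29.3. The call counts, and the fold changes of the tested genes among the 10, are therefore also given without young replicate 1 or aged replicate 2. These fold changes are given without another library too, where that moves one by over 1.5 times. Fold changes of genes outside the 10 use all libraries.

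Of the 10 genes, 9 passed the filter on low counts and were tested, together with 16612 genes in all, by edgeR's quasi-likelihood test of aged against young aorta. None of the 9 had a Benjamini-Hochberg adjusted p below 0.05, as was the case for 0.0% of all genes tested. At an unadjusted p below 0.05 there were 3, Mmp3, Mmp19 and Timp1, all higher in aged aorta, where 5.56% of all genes tested were called in that direction and 10.4% in either. DESeq2's Wald test called these 3 genes at an adjusted p below 0.05 (2.04% of all genes by that tool). Without aged replicate 2, edgeR called 1, Timp1 (0.642% of all genes), and 7 had an unadjusted p below 0.05 (13.8% of all genes). These 7 include Mmp12, which then passed the filter only through the aged libraries. It had 15 and 17 counts in aged replicates 1 and 3 against 3, 0 and 0 in young replicates 1, 2 and 3. Without young replicate 1, edgeR called 0 and 4 had an unadjusted p below 0.05 (11.3% of all genes). Without both of these libraries there were 0 and 8 (16.5% of all genes at the unadjusted p), and these 8 include Mmp12 in the same way. Without young replicate 2 or 3 there were 3 and 2 at an unadjusted p below 0.05 (7.38% and 6.13% of all genes), and without aged replicate 1 or 3 there were 2 and 3 (8.35% and 7.13%). With the replicate number as a block there were 2 (10.7% of all genes). The fitted log2 fold change was above 0 for all 9, with a median of 0.43, where the median of all genes tested was 0.02 and 52.1% were above 0. On the FPKM scale the differences were lower for all 9, and the median of all genes was -0.12 (limma on log2 FPKM, pseudocount 1). There Mmp9 and Mmp14 lay slightly below 0, Timp2 went to 0.06, Timp3 to 0.18, Timp4 to 0.16, Mmp2 to 0.56 and Timp1 to 1.30. Timp1 then no longer had an unadjusted p below 0.05, which left Mmp3 (1.96) and Mmp19 (1.08).

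**Figure D1:**
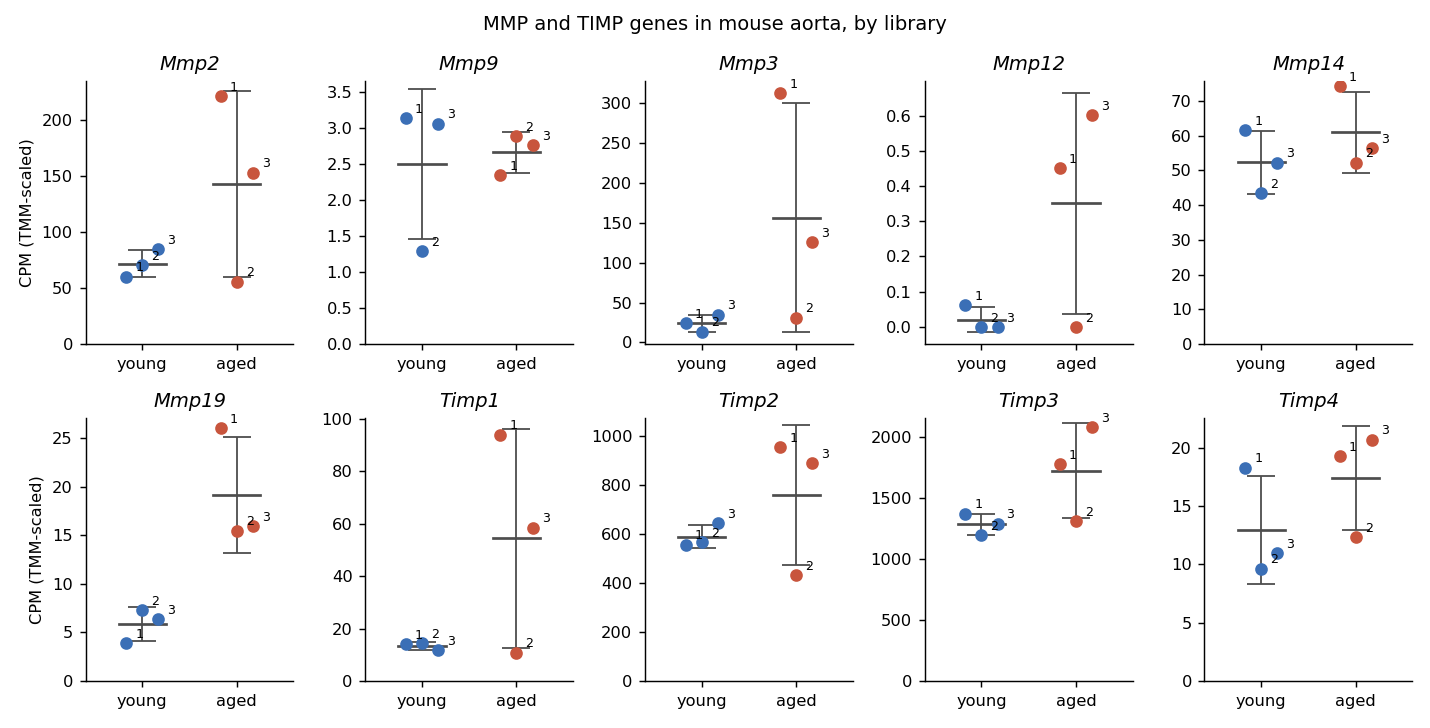
CPM of each of the 10 genes (vertical axes, linear, a scale for each gene) in the 3 young (blue) and 3 aged (red) libraries, numbered by replicate, with the group mean and 1 SD (n = 3). Aged replicates 1 and 3 sit above all young libraries for Mmp2, Mmp3, Timp1, Timp2, Timp3 and Timp4, while aged replicate 2 falls among or below the young ones, and only for Mmp19 do all aged libraries lie above all young ones.

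Mmp3, or stromelysin 1, cuts proteoglycans, fibronectin and basement membrane and activates the precursors of other MMPs. Its gene spans 7445822 to 7455975 on chromosome 9 of GRCm38. Mmp3 stood at 24.1, 13.2 and 34.8 CPM in young replicates 1, 2 and 3 and at 313, 30.7 and 125 CPM in aged replicates 1, 2 and 3. Aged replicates 1 and 3 were far above every young library, whereas aged replicate 2 lay inside the young range. The group means were 24.0 ± 10.8 and 156 ± 144 CPM (SD, n = 3 each). The log2 fold change was 2.70 with a standard error of 0.79 (edgeR, adjusted p = 0.382). DESeq2 gave an adjusted p of 0.00447. Without aged replicate 1 the log2 fold change became 1.70, and without aged replicate 2 it became 3.19 (edgeR, adjusted p = 0.0551), so the size of the difference rests on which aged mouse is counted. Without young replicate 1 it stayed at 2.70.

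Mmp3 is 1 of 10 MMP genes that stand within 427072 bases on chromosome 9. In order along the chromosome these are Mmp13, Mmp12, Mmp1b, Mmp3, Mmp1a, Mmp10, Mmp8, Mmp27, Mmp20 and Mmp7. Mmp3 had 17925 counts over the 6 libraries, Mmp27 128, Mmp12 35 and Mmp13 28, and the other 6 genes had 0 counts in every library. Thus, among these neighbours, Mmp3 alone reached a level above 1 FPKM. Of the windows of 50 bases (the length of the reads) in the Mmp3 transcript, 8.39% also occur in another gene, chiefly Mmp10 with 140 of 147 such windows, and Mmp10 had no counts.

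Mmp12, or macrophage elastase, is made by macrophages and degrades elastin. It lies on chromosome 9 from 7344381 to 7369499. Young replicates 1, 2 and 3 gave 3, 0 and 0 counts of Mmp12, aged replicates 1, 2 and 3 gave 15, 0 and 17, and the gene did not pass the filter. A count of 0 allows up to 3 counts, which is 0.0862, 0.0874 and 0.0795 CPM in young replicates 2 and 3 and aged replicate 2. The aged group again divided, with 2 libraries at 0.451 and 0.602 CPM and 1 at 0. The 11 macrophage markers, all of which had enough counts to be tested, summed to 149, 116 and 110 CPM in young replicates 1, 2 and 3 and to 502, 157 and 340 CPM in aged replicates 1, 2 and 3. Their part in the Mmp12 counts was not tested, and in whole aorta fewer cells of a type cannot be told apart from less RNA per cell.

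Some bases before the start of Mmp3 and Mmp12 are shown because, of the members with a RefSeq promoter, only these hold the AP-1 motif described next. The 100 bases before the RefSeq start (GRCm38.p6, plus strand) are printed in lower case. Capitals mark the AP-1 motif TGANTCA, the binding site of the Fos and Jun factors, and the TATA motif TATAAA, each searched on both strands.
Mmp3, chr9:7445722-7445821: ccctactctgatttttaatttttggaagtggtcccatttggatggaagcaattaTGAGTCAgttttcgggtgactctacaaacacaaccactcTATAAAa
Mmp12, chr9:7347274-7347373: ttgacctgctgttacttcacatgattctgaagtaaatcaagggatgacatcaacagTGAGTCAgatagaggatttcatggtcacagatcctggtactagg
The AP-1 letters began 46 bases before the start of Mmp3 and 44 bases before this start of Mmp12, and the TATA letters 7 bases before the start of Mmp3. The other RefSeq start of Mmp12 had neither motif within 250 bases. In CPM, Mmp3 and Mmp12 were highest in aged replicates 1 and 3. So were Timp1, Timp2, Timp3 and Timp4, which had neither motif in the 250 bases before the start. Among 7 of the 10 genes with a RefSeq promoter, Mmp3 and Mmp12 were those with the AP-1 letters in the 250 bases before the start, which 6.75% of 32851 promoters hold. The TATA letters, found for Mmp3, are held by 12.4%. These windows of Mmp3 and Mmp12 were also poorer in G and C, at 37.6% and 39.6%, than the median of all promoters, 52.4%. Those of Timp2 (68.0%) and Timp3 (65.6%) were richer, and those of Mmp14 (55.2%), Timp1 (54.4%) and Timp4 (53.6%) were slightly above the median. A match of letters is not evidence of binding, and a relation of these motifs to the levels was not tested.

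The gelatinases Mmp2 and Mmp9 degrade denatured collagen and the collagen of basement membranes. Mmp2, on chromosome 8 from 92827291 to 92853420, was at 60.1, 70.2 and 84.3 CPM in young replicates 1, 2 and 3 and at 221, 55.6 and 153 CPM in aged replicates 1, 2 and 3. Aged replicate 2 had the lowest value of all 6 libraries, so the groups overlapped. The log2 fold change was 1.00 with a standard error of 0.45 (edgeR, adjusted p = 0.501), and without aged replicate 2 it was 1.38 (edgeR, adjusted p = 0.0623). Without aged replicate 1 it was 0.54, and without young replicate 1 it was 0.89. Mmp9, on chromosome 2 from 164940780 to 164955850, is typical of neutrophils and activated macrophages. It was at 3.14, 1.29 and 3.06 CPM in young and 2.35, 2.89 and 2.76 CPM in aged replicates 1, 2 and 3, on 45 to 152 counts per library. The 3 aged values lay inside the young range, and the difference of 0.09 on the log2 scale was smaller than its standard error of 0.41 (edgeR, adjusted p = 0.949). It was 0.30 without young replicate 1, 0.27 without young replicate 3, 0.17 without aged replicate 1, 0.03 without aged replicate 2 and -0.21 without young replicate 2. The neutrophil gene Ly6g had 0 counts in all libraries. The 7 neutrophil markers together summed to 0.475, 1.24 and 1.95 CPM in young and 2.47, 2.78 and 4.35 CPM in aged replicates 1, 2 and 3, so all aged sums, though low, were above all young ones. Their part in the Mmp9 value was not tested.

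Mmp14, a protease anchored in the cell membrane that activates the precursor of Mmp2, lies on chromosome 14 from 54431612 to 54445364. It was at 61.6, 43.4 and 52.2 CPM in young and 74.2, 52.2 and 56.4 CPM in aged replicates 1, 2 and 3. The groups overlapped, and the log2 fold change of 0.22 had a standard error of 0.20 (edgeR, adjusted p = 0.718). It was 0.36 without young replicate 1, 0.32 without aged replicate 2, 0.11 without young replicate 2 and 0.05 without aged replicate 1. In FPKM the group means were 8.56 ± 1.36 and 8.58 ± 1.77 (SD, n = 3 each), and limma on log2 FPKM gave a difference of -0.0037.

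Mmp19 is a secreted MMP that acts on basement membrane proteins, and it lies on chromosome 10 from 128790910 to 128800824. It was at 3.88, 7.27 and 6.35 CPM in young replicates 1, 2 and 3 and at 26.0, 15.5 and 16.0 CPM in aged replicates 1, 2 and 3. Every aged library, aged replicate 2 included, was above every young library, as in 7.74% of all genes tested. The group means were 5.83 ± 1.75 and 19.2 ± 5.96 CPM (SD, n = 3 each), and the log2 fold change was 1.72 with a standard error of 0.32 (edgeR, adjusted p = 0.329). The exact two-sided permutation test gave p = 0.1, the smallest p that 3 mice against 3 allow. DESeq2 gave an adjusted p of 3.69e-04. The log2 fold change was 1.5 without young replicate 1 and 1.85 without aged replicate 2, and lay between 1.43 and 1.91 when any 1 library was left out. Mmp19 shares 789 exonic bases with Tmem198b on the opposite strand, 24.7% of the windows of 50 bases in its transcripts also occur in another gene, and whether the counting used strand is not given in the sources used here. Tmem198b had a log2 fold change of -0.09 (edgeR, adjusted p = 0.926), on 772, 809 and 742 counts in young and 608, 495 and 728 in aged libraries. Mmp19 itself rested on 188, 253 and 218 counts in young and 865, 584 and 451 in aged libraries.

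**Figure D2:**
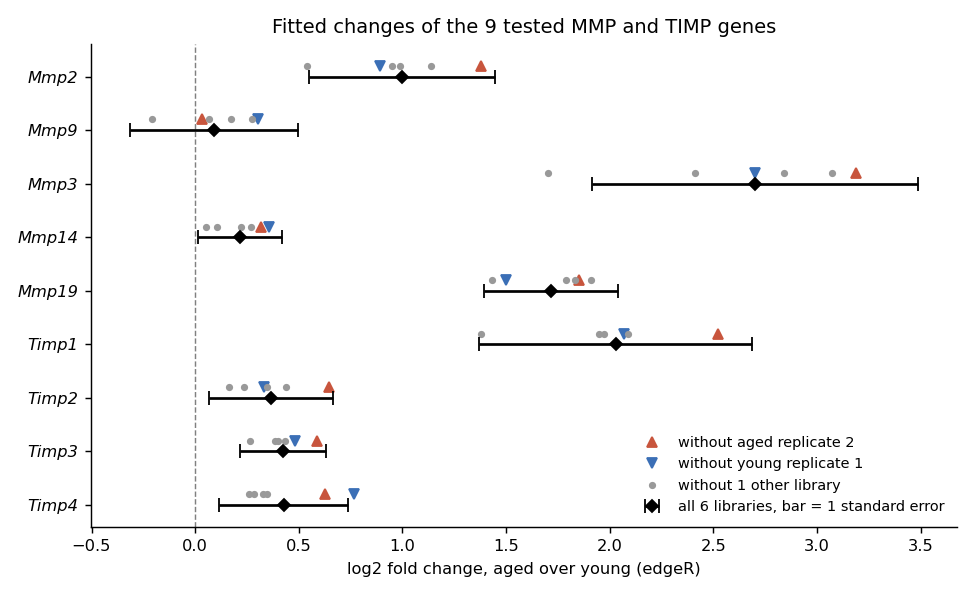
Log2 fold change of aged over young aorta (horizontal axis) for the 9 tested genes by edgeR, with 1 standard error around the fit of all 6 libraries (black). Triangles give the fit without aged replicate 2 (red) or young replicate 1 (blue) and grey dots the fits without 1 other library, and those of Mmp3 spread from 1.70 to 3.19 while those of Mmp19 stay between 1.43 and 1.91.

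Timp1, an inducible inhibitor that binds Mmp9 and most secreted MMPs, lies on chromosome X from 20870166 to 20874735, inside an intron of the synapsin gene Syn1 on the other strand. It was at 13.9, 14.3 and 11.7 CPM in young replicates 1, 2 and 3 and at 94.0, 10.7 and 58.5 CPM in aged replicates 1, 2 and 3. The young libraries were close together, 2 aged libraries were several times higher, and aged replicate 2 was the lowest of the 6. The log2 fold change was 2.03 with a standard error of 0.66 (edgeR, adjusted p = 0.400), and DESeq2 gave an adjusted p of 0.0336. Without aged replicate 2 the log2 fold change was 2.52 and the adjusted p by edgeR 0.0302, without young replicate 1 it was 2.07, and without aged replicate 1 it was 1.38. Syn1 itself had 35 to 145 counts per library, against 402 to 3123 for Timp1, and shares no exonic base with it.

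Timp2 inhibits MMPs broadly and, bound to Mmp14 at the cell surface, takes part in the activation of Mmp2. It lies on chromosome 11 from 118301069 to 118355740. It was at 557, 568 and 643 CPM in young and 956, 432 and 890 CPM in aged replicates 1, 2 and 3, with aged replicate 2 below and the other aged libraries above all young ones. The log2 fold change was 0.37 with a standard error of 0.30 (edgeR, adjusted p = 0.680), and without aged replicate 2 it was 0.65 (edgeR, adjusted p = 0.177). It was 0.33 without young replicate 1, 0.17 without aged replicate 1 and 0.24 without aged replicate 3. Timp3, which is bound to the matrix and also inhibits proteases of the ADAM family, lies on chromosome 10 from 86300372 to 86349506. It was at 1371, 1196 and 1289 CPM in young and 1779, 1310 and 2084 CPM in aged replicates 1, 2 and 3. Again aged replicate 2 lay within the young range, and the log2 fold change was 0.42 with a standard error of 0.21 (edgeR, adjusted p = 0.530). It was 0.59 without aged replicate 2, 0.48 without young replicate 1 and 0.27 without aged replicate 3, the library with the highest Timp3 and endothelial marker values, whose relation was not tested. Timp3 lies within Syn3 on the other strand and shares 1733 exonic bases with it, but Syn3 had only 74 to 273 counts per library where Timp3 had 41613 to 66402.

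Timp4, the inhibitor with the narrowest tissue range and a product of heart and fat, lies on chromosome 6 from 115241892 to 115252205, within Syn2. It was at 18.3, 9.63 and 10.9 CPM in young and 19.3, 12.3 and 20.7 CPM in aged replicates 1, 2 and 3. The high young value was that of replicate 1. Without that library the log2 fold change went from 0.43 with a standard error of 0.31 (edgeR, adjusted p = 0.651) to 0.77 with a standard error of 0.28 (edgeR, adjusted p = 0.415). It was 0.62 without aged replicate 2, 0.26 without young replicate 2 and 0.29 without aged replicate 3. The 8 cardiac muscle markers summed to 392 CPM in young replicate 1 and to between 88.0 and 107 in the other libraries, and their part in the Timp4 value was not tested. The 10 adipocyte markers summed to 1069, 1974 and 561 CPM in young and 795, 4181 and 1078 CPM in aged replicates 1, 2 and 3. Their part in the Timp4 value was not tested either.

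Levels of the 10 genes were then compared per length, as FPKM. Timp3 (median 159 over the 6 libraries) and Timp2 (154) were the most abundant and overlapped each other, and all their values were above those of every other member except the highest Mmp3 value. Next came Mmp2 (22.7), Mmp3 (16.98), Timp1 (15.4) and Mmp14 (8.19), whose ranges overlapped from each to the next. Mmp19 (2.83) and Timp4 (2.31) overlapped each other and lay below Mmp14, followed by Mmp9 (0.654), and Mmp12 stayed at 0.0631 FPKM or below. The 6 MMPs are only some of the 23 MMP genes in the table, and 5 of the 12 with a median of at least 0.05 FPKM. Mmp23 and Mmp17, which are outside the 10 genes, had medians of 52.4 and 15.98 FPKM.

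**Figure D3:**
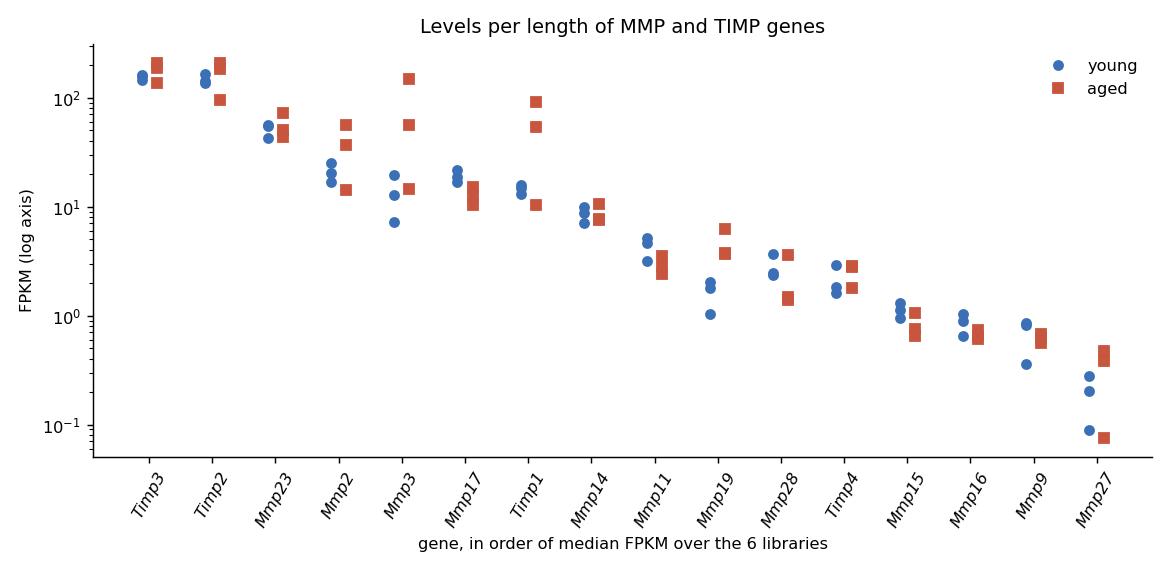
FPKM (vertical axis, log scale) of the 16 MMP and TIMP genes with a median of at least 0.05 FPKM, in order of the median over the 6 libraries, with young (blue circles) and aged (red squares) libraries side by side. Timp3 and Timp2 lead with medians of 159 and 154, and the aged values of Mmp3 and Timp1 spread far more widely than those of Mmp14 or Mmp23.

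The summed FPKM of the 6 MMPs was 41.4, 37.1 and 55.8 in young replicates 1, 2 and 3 and 222, 40.6 and 105 in aged replicates 1, 2 and 3. That of the 4 TIMPs was 314, 304 and 338 in young and 488, 244 and 446 in aged replicates. The FPKM of these 6 MMPs therefore amounted to 13.2, 12.2 and 16.5 per 100 FPKM of TIMPs in young and to 45.5, 16.6 and 23.5 in aged replicates 1, 2 and 3. On this scale all aged libraries were above all young ones, aged replicate 2 by very little. From CPM the ratio was 7.80, 7.58 and 9.25 in young and 22.4, 8.89 and 11.6 in aged replicates 1, 2 and 3, and the groups overlapped. With all 23 MMP genes of the table, the ratio in FPKM was 36.2, 39.4 and 41.4 in young and 64.7, 42.1 and 38.9 in aged replicates 1, 2 and 3, and aged replicate 3 lay within the young range. The 6 MMPs made up 31.0% to 39.9% of the summed MMP FPKM in young libraries and 70.2%, 39.5% and 60.3% in aged replicates 1, 2 and 3. For the 6 MMPs in FPKM the means were 14.0 ± 2.25 and 28.5 ± 15.1 (SD, n = 3 each), so the difference of 14.5 was smaller than the aged SD, and it was 6.08 without aged replicate 1. Mmp3 made up 30.8%, 19.4% and 34.7% of the MMP sum in young and 67.0%, 36.0% and 53.8% in aged replicates 1, 2 and 3. Without Mmp3 the ratio was 9.15, 9.86 and 10.8 per 100 in young and 15.01, 10.6 and 10.9 in aged replicates 1, 2 and 3, and the groups overlapped. On the inhibitor side, Timp2 and Timp3 together held 94.2% to 95.5% of the TIMP sum in young aorta and 80.9%, 95.0% and 87.4% in aged replicates 1, 2 and 3, where the rest was almost all Timp1. The FPKM of Mmp3 divided by that of Timp1 was 0.852, 0.454 and 1.47 in young and 1.64, 1.41 and 1.06 in aged replicates 1, 2 and 3. No test was made of these sums.

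**Figure D4:**
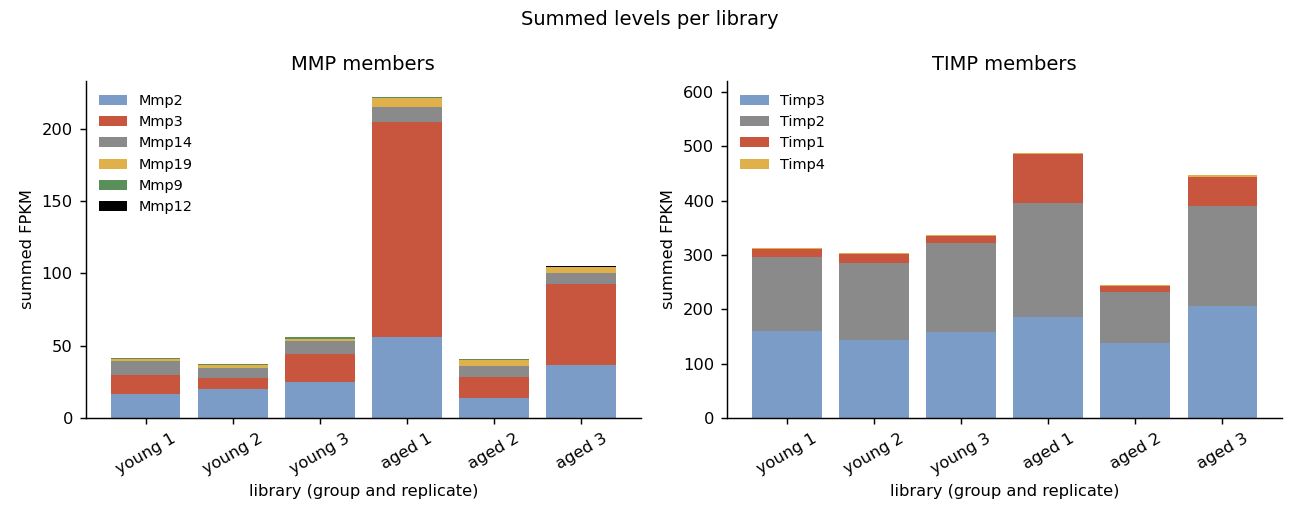
Summed FPKM (vertical axes from 0) of the 6 MMP members on the left and the 4 TIMP members on the right, stacked by gene for each of the 6 libraries. Mmp3 makes up 67.0% of the MMP bar of aged replicate 1 and 19.4% of that of young replicate 2, and aged replicate 2, at 40.6 and 244, is within the young range for the MMPs and below it for the TIMPs.

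In 7 of the 9 tested genes, aged replicates 1 and 3 were both above all young libraries and above aged replicate 2, a pattern seen in 13.7% of all genes tested. The exceptions were Mmp9, whose lowest aged value was that of replicate 1, and Mmp14, which reached only 56.4 CPM in aged replicate 3 against 61.6 in young replicate 1. The fibroblast and macrophage marker sums had the same order of libraries within the aged group as Mmp2, Mmp3, Mmp14, Mmp19, Timp1 and Timp2. Relative to the young mean, the fibroblast marker sum stood at 2.09, -0.21 and 1.71 on the log2 scale in aged replicates 1, 2 and 3. On that scale Mmp3 was at 3.70, 0.35 and 2.38, Timp1 at 2.82, -0.31 and 2.13, Mmp2 at 1.62, -0.36 and 1.09, and Timp2 at 0.70, -0.45 and 0.59. Mmp19 differed in aged replicate 2, at 1.41 against 2.16 and 1.45 in the others. The macrophage marker sum was at 2.0, 0.33 and 1.44. All 7 fibroblast markers and all 11 macrophage markers had a positive log2 fold change, with medians of 1.5 and 1.4. Of all genes tested, 52.1% had one. Of these markers, 6 and 10 had an unadjusted p below 0.05 by edgeR (0 adjusted), where 5.56% of all genes tested were called higher. Of the 7 smooth muscle markers, 0 had a positive log2 fold change (median -0.195). At an unadjusted p below 0.05 there were 3 (edgeR, 0 adjusted), where 4.82% of all genes tested were called lower. The part of any of these cells in the MMP and TIMP values was not tested.

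**Figure D5:**
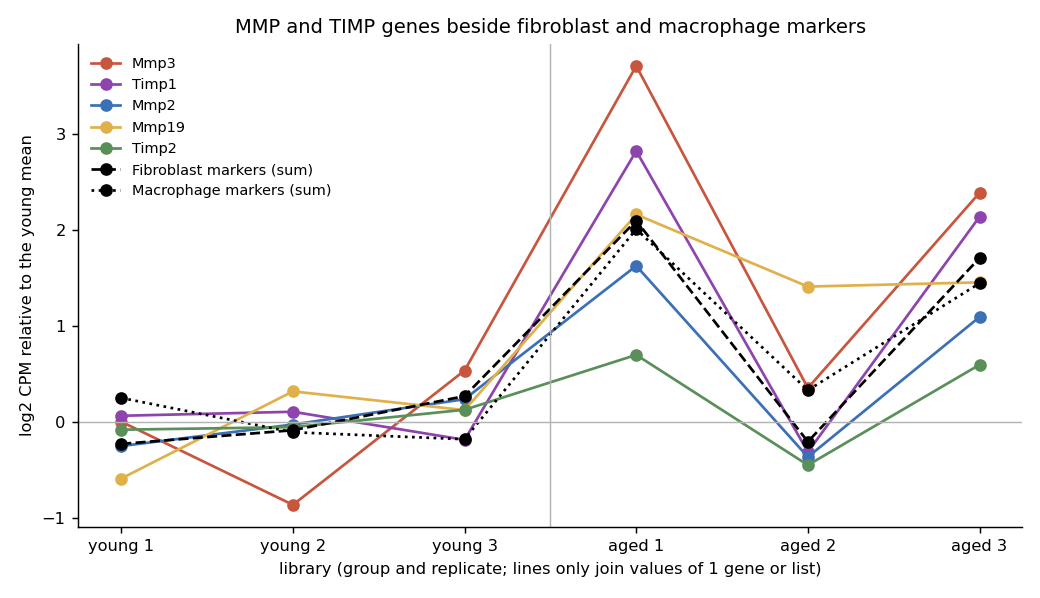
Log2 CPM relative to the mean of the young libraries (vertical axis) for 5 genes and for the sums of 7 fibroblast and 11 macrophage markers (black) in each library. In aged replicate 2 Mmp2, Timp1, Timp2 and the fibroblast sum are between -0.45 and -0.21, while Mmp19 is at 1.41.

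For each tested gene, the gene with the most similar pattern was taken as that with the smallest root mean square difference between log2 CPM profiles, centred on their mean over the 6 libraries, among 14085 genes. These were Ssc5d for Mmp2 (0.069, where the median gene differed by 0.784), Cfb for Mmp3 (0.458 against 1.57), Igfbp6 for Timp1 (0.248 against 1.26) and Fmo1 for Mmp19 (0.229 against 0.978). Jdp2 was nearest to Timp2 (0.074), Enpp4 to Timp3 (0.042), Tle6 to Timp4 (0.064), 1810037I17Rik to Mmp14 (0.042) and Gm6710 to Mmp9 (0.089). Of these 9 distances, that of Mmp3 was the largest. With 6 libraries and this many genes, likeness of this kind describes these mice only.

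The other 17 MMP genes were examined as a fixed list. Of these, 7 were tested, 2 had a positive and 5 a negative log2 fold change (median -0.17, 0.02 over all genes), and 0 passed edgeR's test at an adjusted or an unadjusted p below 0.05. At the unadjusted p, 10.4% of all genes tested passed. Mmp23, which sits in the membrane and is cut loose in the secretory pathway, was at 51.1 ± 7.51 FPKM in young and 55.5 ± 14.9 FPKM in aged aorta (SD, n = 3 each). Mmp17, a protease held to the membrane by a lipid anchor, was at 130, 115 and 142 CPM in young and 117, 96.7 and 85.4 CPM in aged replicates 1, 2 and 3, a log2 fold change of -0.38 (edgeR, adjusted p = 0.514). Among them, Mmp1a, Mmp1b, Mmp7, Mmp8, Mmp10 and Mmp20 had 0 counts in every library, so transcripts of the collagenases Mmp1a, Mmp1b and Mmp8 were not detectable at this depth.

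Among 16 genes of MMP activation, inhibition and clearance, 15 were tested and 9 had a positive log2 fold change (median 0.05), as had 52.1% of all genes. There were 2 with an unadjusted p below 0.05, both higher in aged aorta (edgeR, 0 adjusted, 5.56% of all genes tested in that direction). Lcn2, a lipocalin that binds Mmp9, had a log2 fold change of 3.12 but stayed at 2.23 CPM or below (edgeR, adjusted p = 0.372). It rested on only 6, 2 and 12 counts in young and 74, 41 and 38 in aged replicates 1, 2 and 3. The sum of the neutrophil markers given with Mmp9 was also higher in all aged libraries. Of the single markers, S100a9 and Csf3r were higher in all aged libraries, S100a8, Mpo, Elane and Cxcr2 overlapped, and Ly6g had no counts. The part of these markers in the Lcn2 value was not tested. Pcsk6, a proprotein convertase, was at 20.0, 34.6 and 29.1 CPM in young and 50.2, 32.2 and 65.3 CPM in aged replicates 1, 2 and 3 (edgeR, adjusted p = 0.443). Bsg, the MMP inducer basigin, was the most abundant, at 136 and 142 FPKM in young and aged aorta. Of the 9 ADAM proteases, 8 were tested and 2 had an unadjusted p below 0.05, both lower in aged aorta (4.82% of all genes tested in that direction). The median log2 fold change over this list was 0.20. Adam33 was at 103, 129 and 122 CPM in young and 53.0, 75.8 and 63.6 CPM in aged replicates 1, 2 and 3, with no overlap, as in 8.78% of all genes (log2 fold change -0.87, edgeR adjusted p = 0.360, DESeq2 adjusted p = 0.0141). Adam19 had a log2 fold change of -0.46 (edgeR, adjusted p = 0.464). Adam9 and Adam15, the most abundant, had 0.39 and 0.35.

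All 7 genes of cysteine cathepsins, lysosomal proteases that also cut elastin and collagen, and of their inhibitor cystatin C were tested. Of these, 6 had a positive log2 fold change (median 0.64) and 3 had an unadjusted p below 0.05, all higher in aged aorta (edgeR, 0 adjusted). Of all genes tested, 5.56% were called in that direction and 52.1% had a positive log2 fold change. Ctsz was at 119, 115 and 105 CPM in young and 214, 153 and 162 CPM in aged replicates 1, 2 and 3 (log2 fold change 0.64, edgeR adjusted p = 0.377). Ctss, a cathepsin of macrophages, had a log2 fold change of 1.59 (edgeR, adjusted p = 0.390), with aged replicate 2 at 5.88 CPM against 20.9 and 12.2. The inhibitor Cst3 was at 538 and 747 FPKM in young and aged aorta (log2 fold change 0.69, edgeR adjusted p = 0.465). Ctsb was at 123 and 120 FPKM, but from counts its log2 fold change was positive, at 0.17 (edgeR, adjusted p = 0.754).

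Of 14 matrix genes whose products MMPs cut, all were tested and 4 had a positive log2 fold change (median -0.28), where 52.1% of all genes had one. There were 3 with an unadjusted p below 0.05 by edgeR (0 adjusted), with 1 higher and 2 lower in aged aorta. Of all genes tested, 5.56% were called higher and 4.82% lower. Eln, encoding elastin, was at 5279, 5001 and 4835 CPM in young and 2210, 3335 and 2357 CPM in aged replicates 1, 2 and 3, a log2 fold change of -0.94 (edgeR adjusted p = 0.372, DESeq2 adjusted p = 0.00709). All aged libraries lay below all young ones, aged replicate 2 included, as in 8.78% of all genes tested. Hspg2, encoding perlecan, had a log2 fold change of -0.58 (edgeR, adjusted p = 0.436). Dcn, the proteoglycan decorin and also 1 of the fibroblast markers, was at 502, 549 and 839 CPM in young and 2594, 548 and 2018 CPM in aged replicates 1, 2 and 3 (log2 fold change 1.45, edgeR adjusted p = 0.436), and Bgn, the most abundant of the list, had 0.21.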

How the data were processed

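Aorta of about 2 cm was snap frozen, RNA was purified with a Qiagen kit, and SMARTer mRNA libraries were sequenced single-ended for 50 cycles. The authors deposited whole-number counts per gene, without normalization, and FPKM, the counts scaled by gene length and library. The labels name the build mm10, and the aligner, counter and annotation are not given in the sources used here. Positions come from GENCODE M21 (GRCm38), and promoters from RefSeq (GRCm38.p6).

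Counts were filtered in edgeR 4.0.16 (filterByExpr, minimum count 10, minimum total 15), scaled by TMM and fitted by quasi-likelihood models (R 4.3.3) without covariates. P-values were adjusted by Benjamini-Hochberg over the 16612 genes tested, and an adjusted p below 0.05 was called. Mitochondrially encoded transcripts made up 14.9% to 21.2% of the counts of young and 23.1% to 30.4% of those of aged libraries, a share that lowers the FPKM of the other genes. Alternatives were RLE factors, 2 other filters, removal of mitochondrial genes, DESeq2 1.42.0, limma 3.58.1 fitted to log2-transformed FPKM after adding 1 or 0.1, the replicate number as a block and each library left out. Removal of both young replicate 1 and aged replicate 2 was added after the data were seen. The fit was tested on simulated data.

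The members and lists were chosen with earlier results of these data known. The genes named are the 10 members, the 2 most abundant genes of each list, and up to 2 in each direction with the smallest p below 0.05. A gene that this rule names is not reported here. Mmp1a, Mmp1b, Mmp7, Mmp8, Mmp10, Mmp13, Mmp20 and Mmp27, and the genes that overlap members, are named for their place in the genome. The symbol Itgam had a second row, which was left out of the macrophage markers. Limits of 3 counts cover counting error only.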

Additional observations from a re-analysis of the deposited data

How the results depend on the processing

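Of 135 refits of the 9 tested genes, 126 kept the direction and the call, 4 gained a call and 5 reversed. The log2 fold change of Mmp9 was -0.037 and -0.039 with limma on log2 FPKM (pseudocount 1 and 0.1) and lay between -0.21 (without young replicate 2) and 0.30 with 1 library left out, and that of Mmp14 was -0.0037 and -0.0045 with limma. Limma on FPKM moved the median of all genes to -0.12 and -0.19. The 4 calls gained were those of Mmp3, Mmp19 and Timp1 by DESeq2 and of Timp1 without aged replicate 2. DESeq2 called 338 genes, 3 members and 3 genes of the lists (Eln, Lcn2 and Adam33). With 1 library left out, edgeR called between 0 and 110 genes, between 0 and 1 members and between 0 and 1 genes of the lists (Dcn), the higher value each time without aged replicate 2. At an unadjusted p below 0.05 these fits gave between 1061 and 2359 genes where all libraries gave 1723, between 2 and 7 members where they gave 3, and between 6 and 17 genes of the lists where they gave 10, with the lowest counts of genes without young replicate 3. Without both young replicate 1 and aged replicate 2, there were 2766 genes, 8 members and 17 genes of the lists at that p, and 0 adjusted calls. Both the 7 and the 8 members include Mmp12, which passed the filter there only through its aged counts. Limma gave 2667 and 2663 genes at that p. The aged minus young difference in FPKM of the 6 MMPs per 100 of TIMPs, 14.5, lay between 6.08 (without aged replicate 1) and 20.5 (without aged replicate 2), and was 6.07 from CPM and 9.59 with all 23 MMP genes, which was added after the data were seen. The cause was not tested.

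With the replicate block, edgeR called 0 genes and 1782 had an unadjusted p below 0.05, with 2 members among them, Mmp3 and Mmp19, and no longer Timp1 (log2 fold change 1.63). Deviations of same-numbered libraries correlated at 0.079, 0.117 and 0.096, each the highest for its library, which does not pair the mice.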
